A study of Mus musculus with 2 samples.

Results

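The genes described here build the neuronal cytoskeleton and the growing tip of the axon. They are the 4 neurofilament-type subunits Nefl, Nefm, Nefh and Ina, the related filament protein Prph, the stathmins Stmn1, Stmn2, Stmn3 and Stmn4, and Gap43. The members were taken by gene symbol, and all 10 of them were found among 55536 annotated genes. Their RNA was measured by total RNA-seq of hippocampus, labelled as a layer of that structure, from male mice of the 5xFAD/CAST strain aged 8 to 10 months. 5xFAD mice carry human APP with familial Alzheimer disease mutations as a transgene under the neuronal Thy1 promoter, and the labels describe a cross with Cast, the inbred castaneus strain. Both libraries, numbered by the labels as biological replicates 1 and 2, form 1 group with the transgene label, so no comparison of genotypes was made, and no mice lacking the transgene were analysed here. Both libraries have the same donor identifier, so SDs and p-values below describe how far these 2 samples lie apart, a spread that may be technical.

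Neurofilaments are intermediate filaments that fill large axons and set their calibre. The light chain encoded by Nefl forms the core with the medium and heavy chains of Nefm and Nefh, whose long tails project from the filament, and α-internexin, the product of Ina, is a further subunit in central neurons. Stathmins bind tubulin dimers and promote the disassembly of microtubules until they are phosphorylated, and Gap43 is a membrane-bound substrate of protein kinase C in growth cones and presynaptic endings.

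Totals over the gene table were 26128897 expected counts for replicate 1 and 28689423 for replicate 2, and the 10 genes took 0.123% and 0.129% of the counts of annotated genes. Gene levels are given as TPM, the deposited relative number of transcripts after scaling for length and depth. The 5 general neuron markers summed to 1836 TPM in replicate 1 and to 2083 TPM in replicate 2, and sums for astrocytes, oligodendrocytes, microglia, vascular cells, thalamus and cortex differed by less than 1.5-fold. Single markers within those lists differed by more, such as Foxp2 of the cortex list, at a log2 ratio of replicate 1 over replicate 2 of 2.40, Slc17a6 of the thalamus list, at 0.92, and Col1a1 of the vascular list, at 0.72. Markers of choroid plexus and striatum stood further apart. The 8 choroid plexus markers summed to 1203 TPM in replicate 1 and 185 TPM in replicate 2, led by Ttr and Kl, and the 8 striatum markers to 211 and 78.8 TPM, led by Ppp1r1b and Penk. In bulk tissue, fewer cells of a type and less RNA per cell cannot be told apart.

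Of the 10 genes, 9 reached at least 1 TPM in both libraries, as did 60.3% of 22015 protein-coding nuclear genes. In both libraries 6 of them ranked above the 95th percentile of those genes. The exceptions were Nefm and Ina between the 90th and the 95th percentile, and Nefh and Prph below the 90th. From the highest to the lowest mean, the order was Stmn3, Stmn1, Nefl, Stmn2, Gap43, Stmn4, Ina, Nefm, Nefh and Prph. The ranges of neighbours overlapped between the libraries only for Gap43 and Stmn4, whose ratio was 1.17 in replicate 1 and 0.985 in replicate 2. Stmn1 and Nefl were nearly as close, at a ratio of 1.20 in replicate 1 and 1.02 in replicate 2. By alignment-free TPM, Stmn4 stood above Gap43 in both libraries, at a ratio of Gap43 to Stmn4 of 0.830 and 0.780.

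**Figure D1:**
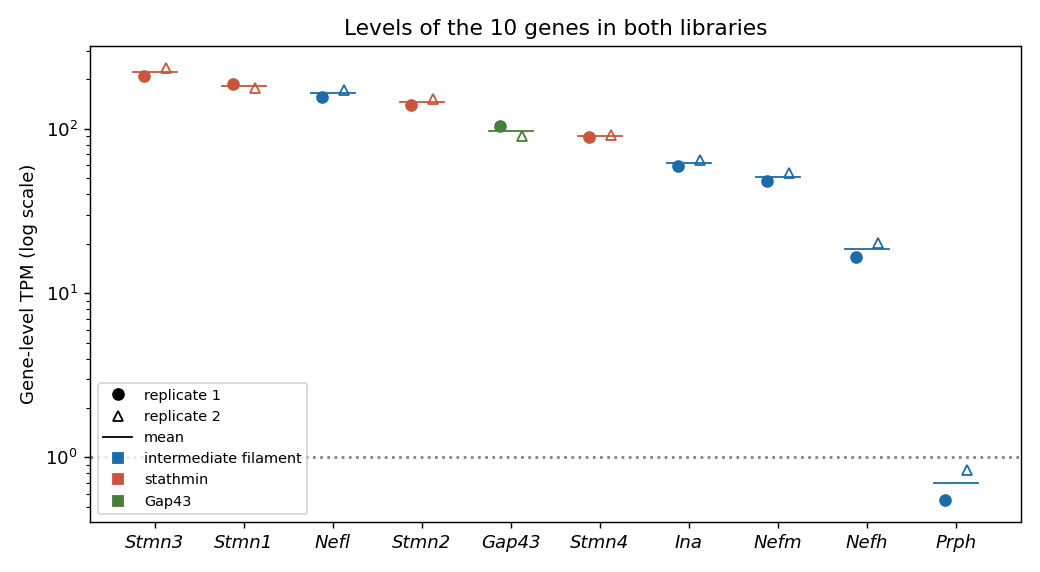
Gene-level TPM (log scale) of the 10 genes in replicate 1 (filled circles) and replicate 2 (open triangles), ordered by their mean (line), with colours for filament proteins, stathmins and Gap43 and a dotted line at 1 TPM. Stmn3 lies highest at 210 and 236 TPM, and Prph is the only gene below the dotted line, at 0.55 and 0.84 TPM.

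Nefl, the light chain, was the most abundant filament subunit. Its level was 156 TPM in replicate 1 and 174 TPM in replicate 2 (mean 165 ± 12.1, SD, n = 2), which placed it at rank 413 and 387 of the protein-coding genes. Ina had 59.3 TPM in replicate 1 and 64.4 TPM in replicate 2 (mean 61.8 ± 3.59, SD, n = 2). Nefm, the medium chain, had 48.4 TPM in replicate 1 and 54.2 TPM in replicate 2 (mean 51.3 ± 4.06, SD, n = 2). Ina therefore stood above Nefm in both libraries, by a ratio of 1.22 and 1.19. Nefh, the heavy chain, had 16.6 TPM in replicate 1 and 20.3 TPM in replicate 2 (mean 18.4 ± 2.68, SD, n = 2). The TPM of all 4 subunits was lower in replicate 1 than in replicate 2, and whether the differences exceed counting error is given with the library test below.

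Per length, Nefl made up 55.6% and 55.4% of the summed TPM of the 5 filament genes in replicates 1 and 2. Ina contributed 21.1% and 20.5%, Nefm 17.2% and 17.3%, and Nefh 5.88% and 6.49%. The composition differed by less than 1 percentage point between the libraries for every subunit, although the sum itself was 281 TPM in replicate 1 and 313 TPM in replicate 2. There were 3.23 and 3.20 light-chain RNAs for each medium-chain RNA, and 9.45 and 8.53 for each heavy-chain RNA. The alignment-free table gave nearly the same ratio to Nefm, 3.27 and 3.22, and a lower one to Nefh, 8.56 and 7.77.

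Prph encodes peripherin, a filament protein best known from peripheral neurons and from central neurons whose axons leave the brain and spinal cord. It had 16 expected counts in replicate 1 and 27 in replicate 2, with exact 95% Poisson intervals of 9.15 to 26.0 and 17.8 to 39.3 that cover counting error only. Its level was 0.55 TPM and 0.84 TPM (mean 0.695 ± 0.205, SD, n = 2), and Nefl exceeded it 285-fold and 207-fold. Both counts lay above the limit of 3 counts that a count of 0 allows, and their intervals overlapped. Markers of cholinergic, brainstem and sensory ganglion neurons were also low, and how closely they track neurons with peripherin was not tested. The 9 markers of cholinergic and brainstem neurons summed to 4.33 TPM in replicate 1 and 0.81 TPM in replicate 2, with none at 1 TPM in both libraries and Hoxb3 and Hoxb5 at 0 in both. Slc5a7, the choline transporter of cholinergic terminals, led that list at 1.14 and 0.1 TPM, followed by Th, the first enzyme of catecholamine synthesis, at 0.89 and 0.29 TPM. Only 2 genes of that list had enough counts for the library test below, and both passed as higher in replicate 1. They were Chat, with 48 counts in replicate 1 and 0 in replicate 2, and Slc5a7, with 98 and 10. The 5 sensory ganglion markers summed to 1.99 and 1.20 TPM, with the ATP receptor P2rx3 at 1.27 and 1.09 TPM. The Prph count was the larger in replicate 2, within counting error, while both marker sums in TPM were larger in replicate 1. P2rx3, however, had 27 counts in replicate 1 and 35 in replicate 2, a difference that did not pass the library test. The other sensory ganglion markers had more counts in replicate 1. The part of all these neurons in the Prph level was not tested.

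Stmn3, a Golgi-associated stathmin of neurons, was the highest of the 10 genes. It had 210 TPM in replicate 1 and 236 TPM in replicate 2 (mean 223 ± 18.7, SD, n = 2), at rank 261 and 227. Stmn1, the founding member, which is also made by dividing precursors, had 188 TPM in replicate 1 and 176 TPM in replicate 2 (mean 182 ± 8.20, SD, n = 2). Stmn2, also called SCG10 and enriched in growth cones, had 140 TPM in replicate 1 and 152 TPM in replicate 2 (mean 146 ± 7.95, SD, n = 2). Of these stathmins, Stmn1 alone was higher in replicate 1 in TPM. Stmn4, also called RB3, had 89.0 TPM in replicate 1 and 92.3 TPM in replicate 2 (mean 90.7 ± 2.35, SD, n = 2). Gap43 had 104 TPM in replicate 1 and 90.9 TPM in replicate 2 (mean 97.4 ± 9.19, SD, n = 2), and like Stmn1 it was higher in replicate 1.

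No stathmin dominated its family. Stmn3 held 33.5% of the summed stathmin TPM in replicate 1 and 36.0% in replicate 2, Stmn1 30.0% and 26.9%, Stmn2 22.4% and 23.1%, and Stmn4 14.2% and 14.1%. The stathmin total was 627 TPM in replicate 1 and 657 TPM in replicate 2. The Stmn1 and Stmn3 shares moved in opposite directions from one library to the other. By alignment-free TPM, Stmn3 and Stmn1 changed places in replicate 1, where their ratio was 0.9799, but not in replicate 2, where it was 1.19.

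The genes lie on 8 chromosomes of the mm10 assembly, with 3 of them on chromosome 14. Nefl (chr14:68083863-68089095, plus strand, 4 exons) and Nefm (chr14:68082590-68124846, minus strand, 3 exons in its leading transcript) are neighbours that are transcribed towards each other. Their leading transcripts end 30187 bases apart. Stmn4 (chr14:66344296-66361680, plus strand) lies on the same chromosome. The other locations are chr11:4938754-4948064 for Nefh (minus strand), chr19:47014698-47025327 for Ina (plus), chr15:99055174-99058978 for Prph (plus), chr4:134468320-134473843 for Stmn1 (plus), chr3:8509360-8561606 for Stmn2 (plus), chr2:181306459-181314500 for Stmn3 (minus) and chr16:42248442-42340651 for Gap43 (minus). Ina overlaps Nt5c2 on the opposite strand, and Nt5c2 itself had 1954 and 2157 counts in the 2 libraries. The kit was directional, per the labels, but whether counting used the strand is not given in the sources used here, so reads of overlapping antisense pairs may not be fully separated.

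A stretch of the Nefh coding sequence is shown because it repeats a short unit more often than any other member. Its tail carries lysine-serine-proline motifs, the sites at which neurofilaments are phosphorylated. The DNA unit searched was any of 6 in-frame forms on the coding strand, AAATCNCCN, AAGTCNCCN, AAAAGTCCN, AAAAGCCCN, AAGAGTCCN and AAGAGCCCN, counted without overlap. Nefh held 51 such units, more than any other of 21786 coding sequences, of which 10.5% held at least 1 unit and 17 held at least 5. Nefm held 4 units, Stmn3 held 1, and Nefl, Ina and Prph held 0. The densest stretch lies at chr11:4940830-4941069 and holds 13 units, printed in capitals on the coding (minus) strand.
Nefh: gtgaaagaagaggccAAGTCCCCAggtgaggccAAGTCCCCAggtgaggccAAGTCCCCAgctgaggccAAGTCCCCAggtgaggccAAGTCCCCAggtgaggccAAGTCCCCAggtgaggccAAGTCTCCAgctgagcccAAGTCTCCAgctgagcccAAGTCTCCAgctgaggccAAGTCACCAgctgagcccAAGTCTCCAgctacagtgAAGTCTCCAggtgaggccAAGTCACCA
The deposited alignment-free counts were then set against the alignment-based ones, as a check of how far the members' counts depend on how reads were assigned. The ratio of alignment-free to alignment-based counts was 1.23 in replicate 1 and 1.22 in replicate 2 for Nefh, against a median of 1.14 in both libraries over protein-coding genes with at least 500 counts. That placed Nefh at percentiles 93.5 and 93.2 of those genes. Stmn1 reached 1.24 in both libraries, at percentiles 95.1 and 95.4. The part of the repeats in the Nefh ratio was not tested. Stmn4 had the lowest ratio of the set, 1.08 and 1.09, and the other 6 genes above the count minimum lay between 1.09 and 1.15. None of the 9 genes was more than 1.5-fold from the median, as were 0.612% and 0.626% of the genes compared. Prph fell short of the count minimum.

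In transcript composition, 7 of the 10 genes had 1 leading transcript with over 95% of the gene's TPM in the alignment-based tables. By alignment-free TPM there were 6. Nefl, Nefh, Ina and Stmn3 have a single annotated transcript, and the second one of Gap43, which is noncoding, was at 0 in all 4 transcript tables. Stmn1-201 held 97.3% and 97.0% of Stmn1 TPM in the alignment-based tables, and 93.7% and 95.2% in the alignment-free ones. The genes with a more mixed composition were Stmn2, Stmn4 and, at very low counts, Prph.

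Nefm has 2 coding transcripts, which part after exon 2. The bases on either side of the junction are given on the coding strand, with the following exon in capitals. It begins at base 68121384 of chromosome 14 in Nefm-201, and in Nefm-202 it is the 67-base exon chr14:68115950-68116016.
Nefm-201: gatcgccgcgtacagGAAACTCCTAGAGGG
Nefm-202: gatcgccgcgtacagACTATGGAAGCTGAG
Nefm-201 codes for 2544 bases without the stop codon and Nefm-202 for 1410, since the exon with the rest of the coding region in Nefm-201 is skipped in Nefm-202. Nefm-202 held 4.00% of Nefm TPM in replicate 1 and 2.99% in replicate 2. The alignment-free tables gave it 4.11% and 2.72%. Exons of Nefm-202 overlap those of Nefl-201 on the opposite strand by 1108 bases. Nefl had 9312 counts in replicate 1 and 11030 in replicate 2, against 126 and 113 assigned to Nefm-202, and the part of the overlap in the Nefm-202 value was not tested.

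**Figure D2:**
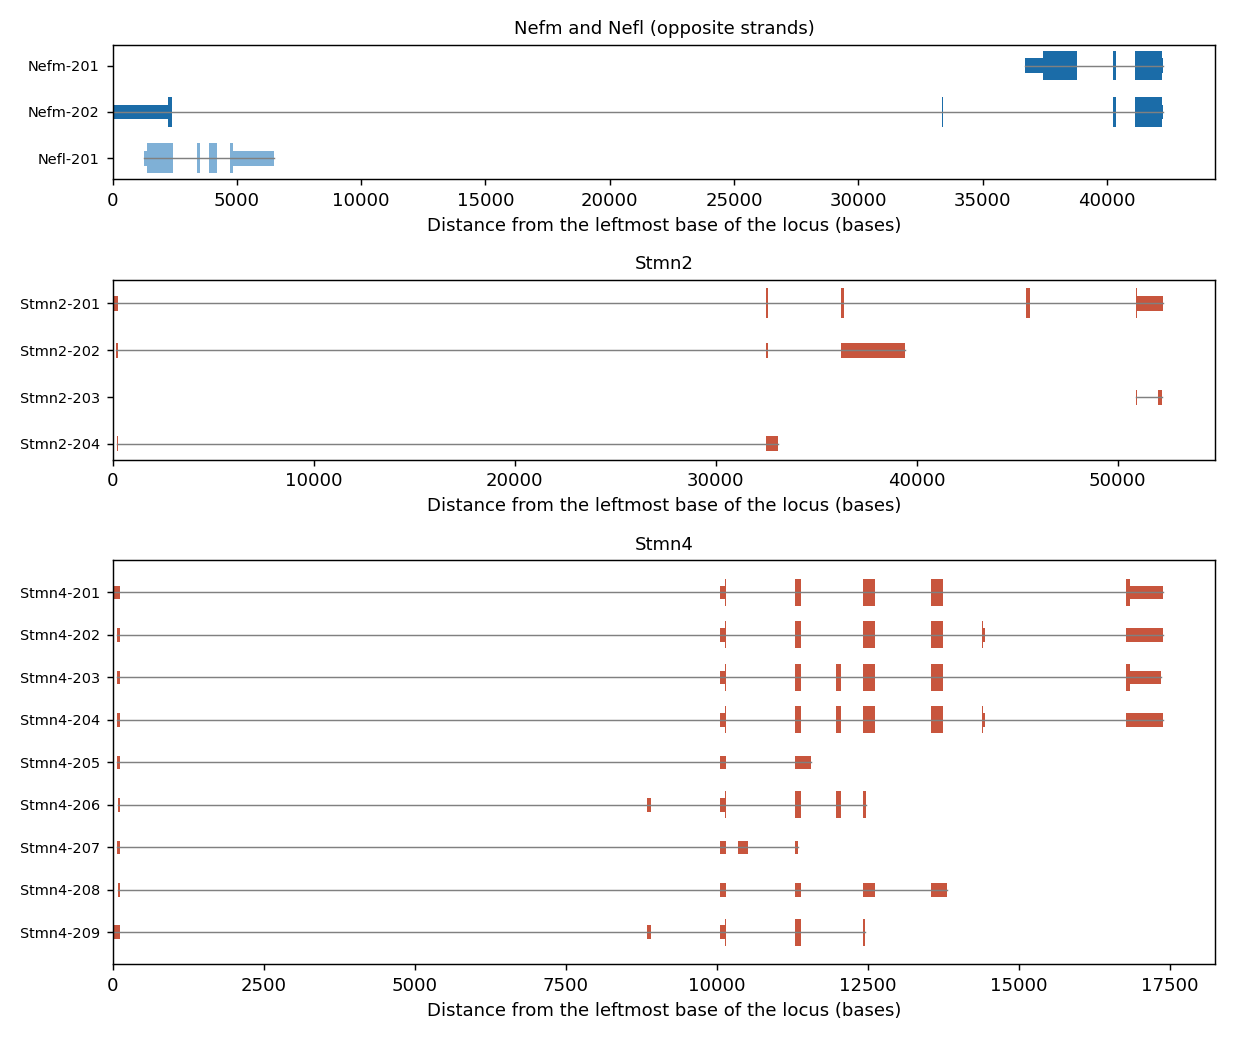
Exons of Nefm and Nefl, Stmn2 and Stmn4 transcripts drawn to scale as distance in bases from the leftmost base of each locus, where tall boxes are coding exons and low boxes noncoding ones. The last exon of Nefm-202 runs over the first exon of Nefl-201, and both exons of Stmn2-203 lie within the last exon of Stmn2-201.

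For Stmn2, the share of a short noncoding transcript depended on the scale. Stmn2-203 is 308 bases long, and all 308 bases lie inside the last exon of the coding transcript Stmn2-201 (chr3:8560266-8561606). Its exons, chr3:8560266-8560336 and chr3:8561339-8561575, are separated by an intron of 1002 bases. Stmn2-203 had 169 expected counts in replicate 1 and 133 in replicate 2, which are 4.67% and 2.84% of Stmn2 counts. In TPM, with an effective length of 208 bases, the same reads made 31.9% of the gene in replicate 1 and 21.8% in replicate 2. The alignment-free tables gave 37.7% and 14.4% of TPM from 2.92% and 0.942% of counts. In both kinds of table its share was higher in replicate 1.

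Gene-level TPM of Stmn2 sums all its transcripts. The coding Stmn2-201 alone had 94.7 TPM in replicate 1 and 118 TPM in replicate 2. The gene as a whole had 140 and 152 TPM. On Stmn2-201 alone, Stmn2 would stand below Nefl in both libraries as before, but its replicate 1 level would be below that of Gap43. In counts the log2 ratio of replicate 1 over replicate 2 was -0.24, and in gene-level TPM it was -0.11. The retained-intron transcripts were low, with Stmn2-202 at 0.97 and 0.89 TPM and Stmn2-204 at 0 and 0.21 TPM.

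Stmn4 had the most transcripts, with 9 annotated. Stmn4-201 led with 79.0% of TPM in replicate 1 and 78.2% in replicate 2. An 81-base exon that keeps the reading frame, chr14:66356269-66356349, is left out of Stmn4-201 and included in Stmn4-203, Stmn4-204 and Stmn4-206. The coding bases around it are given on the plus strand, with the exon in capitals for Stmn4-204 and the exon that follows the junction in capitals for Stmn4-201.
Stmn4-201: cctacaaatatgaagCAGATACAGTAGACC
Stmn4-204: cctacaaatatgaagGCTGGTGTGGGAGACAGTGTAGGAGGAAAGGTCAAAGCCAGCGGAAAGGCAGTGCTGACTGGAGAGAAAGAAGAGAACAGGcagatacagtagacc
Transcripts with the 81-base exon made 11.8% of Stmn4 TPM in replicate 1 and 12.4% in replicate 2. The alignment-free tables gave 11.97% and 8.74%. A 53-base exon near the end (chr14:66358679-66358731), used by Stmn4-202 and Stmn4-204, was in 7.45% and 6.55% of TPM. The retained-intron transcript Stmn4-208 held 4.88% and 6.82%. Over all 4 tables, the 81-base exon was in 8.74% to 12.4% of Stmn4 TPM.

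The alignment-free and alignment-based tables gave different Stmn4 transcripts. Stmn4-209, a 418-base incomplete model, held 33.8% in replicate 1 and 28.7% in replicate 2 of alignment-free TPM, and 0 in both alignment-based tables. Stmn4-201 accordingly held 49.7% and 57.8% in the alignment-free tables, against 79.0% and 78.2% in the alignment-based ones. Stmn4-206, the other model with a 66-base exon upstream of the exon that holds the start codon, had 5.81% and 1.70% of alignment-free TPM and 0 in the alignment-based tables. That upstream exon (chr14:66353149-66353214) was therefore in 39.6% and 30.4% of alignment-free TPM and in none of the alignment-based TPM. The gene's TPM was 119 in both libraries by the alignment-free tables, against 89.0 in replicate 1 and 92.3 in replicate 2 by the alignment-based ones. In counts, Stmn4-209 made 9.09% and 6.96% of the alignment-free reads of the gene.

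**Figure D3:**
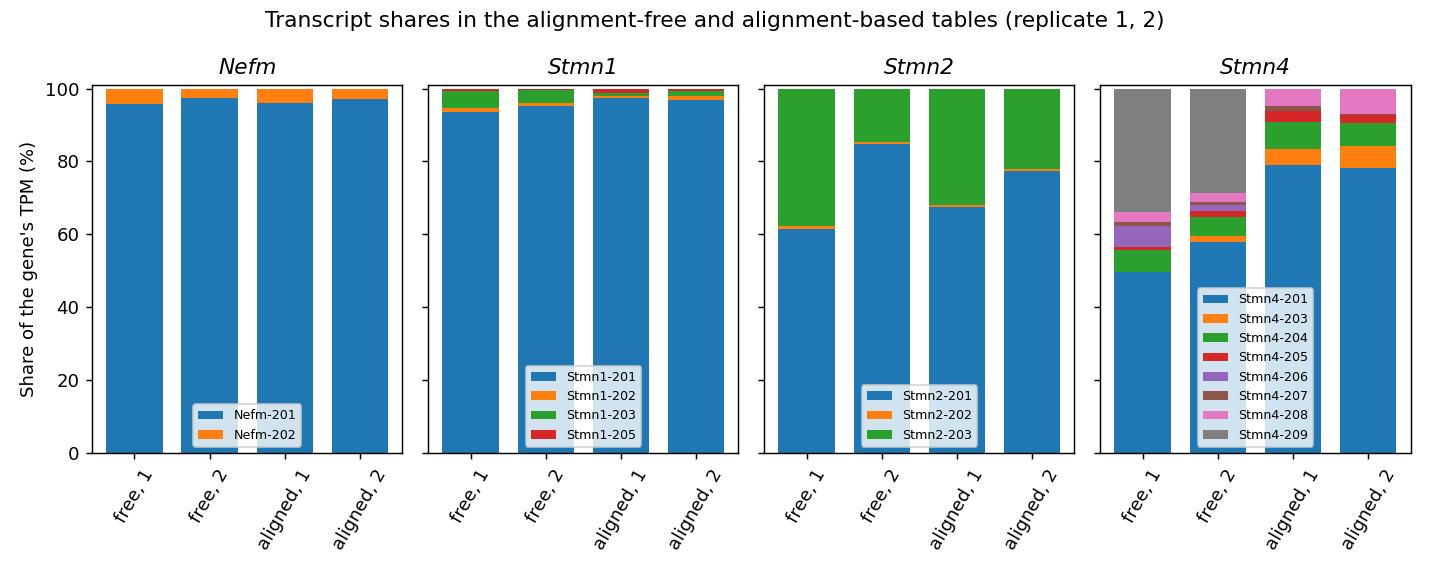
Share of each gene's TPM (percent, stacked bars from 0) held by its transcripts for Nefm, Stmn1, Stmn2 and Stmn4, in the alignment-free tables of replicates 1 and 2 (left pair) and the alignment-based tables (right pair), leaving out transcripts that never exceed 0.5%. Nefm and Stmn1 look alike in all 4 bars, the Stmn2-203 share is larger in replicate 1 in both kinds of table, and Stmn4-209 appears only in the alignment-free bars.

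For Prph, Prph-201 held 58.9% of TPM in replicate 1 and 100% in replicate 2. Prph-204 had 33.9% and 0, and the 397-base model Prph-203 had 7.14% and 0, with 44.3% and 16.4% in the alignment-free tables. With 16 counts in replicate 1 and 27 in replicate 2 for the whole gene, these shares rest on few reads.

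The libraries were then compared with each other, by an exact conditional binomial test on expected counts scaled by TMM (edgeR). It sets a difference against counting error alone and says nothing of conditions. At an adjusted p under 0.05, 7 of the 10 genes differed, against 18.4% of 16971 genes tested. Of these, 2 were higher in replicate 1, against 9.16% of all genes, and 5 were higher in replicate 2, against 9.21%. Scaled on the ERCC spike-ins, 0 were higher in replicate 1 and 8 higher in replicate 2, with 59.1% of all genes called. No member was more than 2-fold apart, as were 2.00% of all genes. The median absolute log2 ratio was 0.13 over the members and 0.12 over all genes tested. Those genes reach down to a mean of 20 counts, where counting error alone spreads ratios more, so the 2 medians are not at like depth. Of the members, 9 had at least 1169 counts in each library, and larger counts let smaller differences pass this test. Among all genes with a mean of at least 100 counts, a minimum still below the counts of those 9 members, 21.9% differed.

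Stmn2 had the smallest adjusted p, with a log2 ratio of replicate 1 over replicate 2 of -0.24 (95% interval -0.31 to -0.18, adjusted p 7.48e-13, exact binomial test), or 3616 counts in replicate 1 and 4685 in replicate 2. Nefh had 1169 and 1535 counts and a log2 ratio of -0.26 (-0.38 to -0.15, adjusted p 4.32e-05). Nefl, Nefm and Stmn3 were also lower in replicate 1, at log2 ratios of -0.12 (adjusted p 3.44e-07), -0.13 (adjusted p 0.00555) and -0.14 (adjusted p 0.000164), all by the exact test. Ina, at -0.08 (adjusted p 0.0631), Stmn4, at -0.03 (-0.12 to 0.07, adjusted p 0.786), and Prph, at -0.61 (-1.62 to 0.32, adjusted p 0.388), did not pass. Gap43 was higher in replicate 1, with 2489 counts against 2326 and a log2 ratio of 0.23 (0.14 to 0.31, adjusted p 1.29e-06), and Stmn1 was higher in replicate 1 at 0.13 (0.06 to 0.20, adjusted p 0.00446), but scaled on the spike-ins Gap43 turned to -0.041 (adjusted p 0.411) and Stmn1 to -0.14 (adjusted p 0.00021). That scaling moved the median of all genes to -0.27, so both genes stayed above the median. It shifts every log2 ratio by as much, so genes given below as higher in replicate 1 by less than that turn negative with it.

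Neuron markers moved between the libraries as well. All 5 general neuron markers were lower in replicate 1, with a median log2 ratio of -0.15, and all 5 markers of pyramidal and granule neurons, with a median of -0.32. The members' median was -0.12, and that of all genes tested was 0.00. Of the 6 interneuron markers, Gad2 and Slc32a1 were higher in replicate 1, at 0.25 and 0.28, and Pvalb, the marker of fast-spiking cells, was lower at -0.35. Of the 4 tested young neuron markers, Dcx, with 7.14 and 5.60 TPM in replicates 1 and 2, and Calb2, with 20.04 and 17.22 TPM, were higher in replicate 1, while Sox11, at a log2 ratio of 0.20, and Neurod1, at -0.05, did not pass. The choroid plexus and striatum lists had all 8 markers each higher in replicate 1, and the vascular, microglia and cortex lists had 3 of 5, 3 of 5 and 3 of 6, with none that passed as lower. The oligodendrocyte and astrocyte lists had 2 of 5 and 1 of 5, also with none lower. Of the 6 thalamus markers, 1 was higher and 1 lower. Among all genes tested, 9.16% passed as higher in replicate 1, a share not matched to these markers in depth. The part of any of these cell types in the members' differences was not tested.

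**Figure D4:**
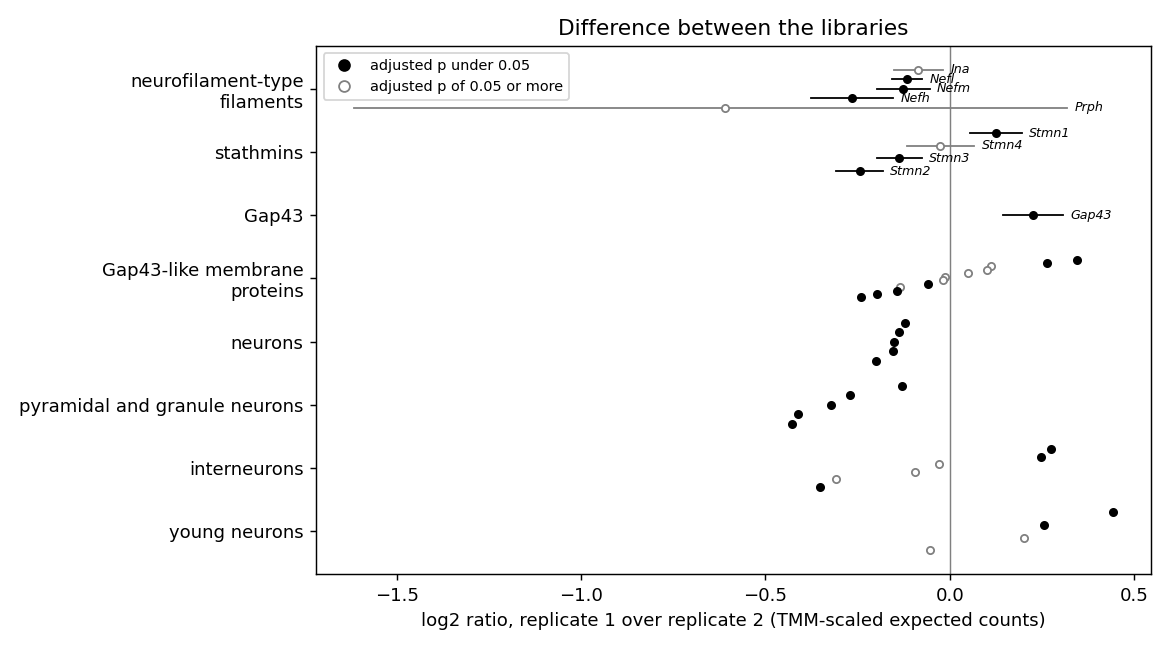
Log2 ratio of replicate 1 over replicate 2 (TMM-scaled expected counts) for the members with 95% counting intervals (lines) and for the genes of 5 lists without them, where filled points pass an adjusted p of 0.05. Gap43 and Stmn1 lie right of 0 and every filament subunit left of it, with all 10 general and pyramidal or granule neuron markers also on the left; scaled on spike-ins, Gap43 and Stmn1 fall left of 0 too.

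Genes that work with the members were also measured in both libraries. Among 12 growth cone and membrane proteins like Gap43, all reached 1 TPM in both libraries. Nrgn, a calmodulin-binding protein of dendrites, had 479 and 583 TPM in replicates 1 and 2, and Gpm6a, a membrane glycoprotein, had 349 and 372 TPM. In that list Marcks and Pcp4 were higher in replicate 1, at log2 ratios of 0.27 and 0.35, and Basp1, Nrgn, Gpm6a and Crmp1 were lower, at -0.14, -0.24, -0.06 and -0.20. Basp1, a growth cone protein often grouped with Gap43, had 199 TPM in replicate 1 and 225 TPM in replicate 2, the opposite order to Gap43. The list's median log2 ratio was -0.02.

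Of 10 genes for the linkage, transport and turnover of neurofilaments, the axonal motor Kif5a led with 375 TPM in replicate 1 and 360 TPM in replicate 2. Trim2, a ubiquitin ligase that acts on the light chain, followed with 147 and 165 TPM. Kif5a and the cytoskeletal linkers Dst and Macf1 were higher in replicate 1, at log2 ratios of 0.09, 0.12 and 0.15. Trim2 was lower in replicate 1, at -0.17. Among 8 other intermediate filament genes, the astrocyte filament Gfap had 821 and 853 TPM in replicates 1 and 2 and did not pass the test (log2 ratio -0.02). Vim, at 63.4 and 64.9 TPM, and the lamin Lmnb1, at 4.78 and 3.97 TPM, passed as higher in replicate 1 in scaled counts, at 0.13 and 0.42. The Gfap level was above that of every neuronal filament gene.

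Of 6 kinases that phosphorylate stathmins, Mapk10, the neuronal Jun kinase, led with 178 TPM in replicate 1 and 193 TPM in replicate 2, followed by Pak1 with 89.8 and 96.3 TPM. Mapk8, Mapk10 and Cdk5 were lower in replicate 1, at log2 ratios of -0.12, -0.13 and -0.16. Among 5 RNA-binding proteins that act on RNAs of these genes, Tardbp, which encodes TDP-43 and is known from human neurons to protect STMN2 splicing, had 85.9 and 92.7 TPM in replicates 1 and 2. Elavl3 had 51.5 and 56.1 TPM and was the only one of the 5 to pass, at -0.09.

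Genes of the response to axon injury were low, except Jun. Jun had 35.0 TPM in replicate 1 and 38.3 TPM in replicate 2, and Sox11 had 4.56 and 4.05 TPM. Of the 5 genes tested, only Ecel1 passed, with 4.42 TPM in replicate 1, 1.40 TPM in replicate 2 and a log2 ratio of 2.25. Sprr1a held 0 counts in replicate 1 and 1 in replicate 2. Gap43, which is known to be induced in injured axons, was 1.17-fold higher in replicate 1 with TMM scaling. Scaled on the spike-ins, its log2 ratio was -0.041. The part of axon injury in the Ecel1 and Gap43 values was not tested.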

How the data were processed

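Each of the 2 libraries was made from 300 ng of hippocampus RNA with a directional kit after ribosomal RNA removal and with ERCC spike-ins, per the labels. The expected counts (alignment-based) and estimated counts (alignment-free) are the authors' deposited estimates of reads and can be fractional. Per the file headers, TPM and FPKM were normalised to length and library size by the authors, and the percent column of the transcript tables is the part of the gene's TPM in that transcript. The deposited coefficient of quartile variation, a score of the uncertainty of TPM, was read but not tested. The assembly was mm10 with GENCODE M21, per the labels; neither the aligner nor the quantifiers are named in the sources used here. Reads of CAST alleles were quantified on mm10, and what that does to the values was not tested.

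Expected counts were rounded. Libraries were scaled by TMM (edgeR 4.0.16, R 4.3.3), log2 ratios of replicate 1 over replicate 2 used a prior count of 0.5, and genes with a mean count of at least 20 entered a two-sided exact conditional binomial test with Benjamini-Hochberg adjustment over all 16971. Its steps were checked on simulated counts. The floor for a gene at 0 was 3 counts, equal to 0.115 CPM in replicate 1 and 0.105 CPM in replicate 2. Intervals and floors cover counting error only. Alternatives used DESeq2 (1.42.0) size factors, total counts, spike-ins, other minimums, FPKM, posterior mean TPM, the alignment-free tables and leaving out a replicate. Python 3.11.15, numpy 2.4.6, pandas 2.3.3, scipy 1.17.1 and matplotlib 3.10.9 did the rest.

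The members and lists were chosen with earlier results of these data known. Named were all members, the 2 highest and every called gene of each pathway list, the 2 highest of marker lists more than 1.5-fold apart, and transcripts with at least 5% of a gene's TPM in any table. Some genes that this rule took are not reported here. Other genes and transcripts named were chosen after their values were seen.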

Additional observations from a re-analysis of the deposited data

How the results depend on the processing

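The number of members called, of members detected and of members with 1 leading transcript stayed within 1.5-fold under every alternative run. The number of members far from the usual alignment-free ratio was 0 in every run, so a fold limit cannot be applied to it. Of the 7 members with 1 leading transcript, 4 have a single annotated transcript and could not change. Calls numbered 7 with DESeq2 size factors, total counts, no count minimum or a minimum of 100, 8 with alignment-free counts, which added Ina, and 8 with spike-in scaling, which added Ina and Stmn4 and lost Gap43 (adjusted p 0.411). Spike-in scaling put 0 members higher in replicate 1 and 8 higher in replicate 2, turned the log2 ratio of Stmn1 to -0.14 and of Gap43 to -0.041, and called 59.1% of all genes. Alignment-free TPM moved the members' median level to 107 TPM, against 94.1 TPM, the share of Nefl to 54.8% and that of Stmn3 to 32.3%, and expected counts not divided by length gave Stmn3 31.7%. Leaving out a replicate gave a median level of 91.6 to 96.5 TPM. No paired analysis was possible because there is only 1 group. The library difference needs both libraries, so neither could be left out. Depth limits Prph, whose interval spans both directions.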
